A study of Mus musculus with 3 samples.

Results

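The mitochondrial ribosomal protein genes are the nuclear genes whose products build the ribosome inside mitochondria. They were taken by symbol, as all protein-coding genes of the mouse RefSeq annotation on chromosomes 1 to 19 and X that are named Mrpl or Mrps with a number and at most 1 letter from a to c. This gave 78 genes among 21631 protein-coding genes, 49 with an Mrpl symbol and 29 with an Mrps symbol, which mostly stand for the large and the small subunit. The study profiled the binding of Foxp3, the forkhead factor that defines regulatory T cells, in mouse bone marrow-derived macrophages (BMDM) grown in medium conditioned with the growth factor MCSF. CUT&RUN was used, in which an antibody directs a nuclease to its target in permeabilised cells and the released DNA fragments are sequenced. Of 3 samples, 2 are Foxp3 libraries made with the same antibody (replicates 1 and 2) and 1 is an IgG isotype library, and all came from cells fixed in 0.1% formaldehyde for 2 min. The labels give no strain, genotype, age or number of animals. Brain-derived damage-associated molecules are named as a stimulus in the title, without a label on any sample telling whether it was given. Values of the IgG library were not analysed here, so no background antibody value stands beside any value below. Separate cultures are not stated for the replicates, whose spread may be technical.

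The ribosome of mitochondria translates the few proteins encoded by mitochondrial DNA, which are core subunits of the respiratory chain and of the ATP synthase. Its RNA is transcribed inside the organelle, whereas its proteins are encoded in the nucleus, made in the cytosol and imported. Many of them descend from proteins of the bacterial ribosome, and others were added in the mitochondrial lineage. Promoters of nuclear genes for mitochondria are often rich in CpG and are known for binding words of the ETS family member GABP, of NRF1 and of YY1. In macrophages, mitochondrial translation supplies the respiratory chain, whose use differs between activation states.

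The 2 Foxp3 libraries held 33294105 and 34898401 fragments and were very unequal in peaks, with 556535 in replicate 1 and 95135 in replicate 2. Their fragment sizes also differed, at 130 and 180 bp. Among all protein-coding genes, 86.1% had a replicate 1 peak within 1000 bp of an end of the gene and 63.3% had a replicate 2 peak. A peak of replicate 1 near a gene is therefore the rule, and replicate 2 limits nearly every count of genes with a site in both.

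RefSeq promoters (build GRCm38.p6, 250 bases before the start site and 50 from it on) were listed for 69 of the 78 genes. Of these, 5 are shown to let the reader see what the peaks cover. Mrpl32, Mrpl9 and Mrps22 had strong sites in both replicates, Mrpl44 is 1 of the 2 members whose promoter holds the forkhead word TGTTTAC, and Mrpl1 had no site in either replicate. They lie at chr13:14612988-14613287 (minus strand), chr3:94443086-94443385 (plus), chr9:98601630-98601929 (minus), chr1:79775768-79776067 (plus) and chr5:96209865-96210164 (plus), in that order. Each is written 5′ to 3′ on the strand of its gene, with a forkhead, ETS or NRF1 word in capitals (the NRF1 word in Mrpl32 and Mrpl9, the ETS word in Mrps22, a forkhead word followed by an NRF1 word with free centre in Mrpl44, and none of these in Mrpl1).
Mrpl32: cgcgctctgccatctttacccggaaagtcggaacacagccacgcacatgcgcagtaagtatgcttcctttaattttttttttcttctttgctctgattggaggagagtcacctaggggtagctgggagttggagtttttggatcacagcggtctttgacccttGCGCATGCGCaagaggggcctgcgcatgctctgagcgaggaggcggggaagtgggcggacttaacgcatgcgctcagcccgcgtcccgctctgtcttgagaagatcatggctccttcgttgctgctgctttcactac
Mrpl9: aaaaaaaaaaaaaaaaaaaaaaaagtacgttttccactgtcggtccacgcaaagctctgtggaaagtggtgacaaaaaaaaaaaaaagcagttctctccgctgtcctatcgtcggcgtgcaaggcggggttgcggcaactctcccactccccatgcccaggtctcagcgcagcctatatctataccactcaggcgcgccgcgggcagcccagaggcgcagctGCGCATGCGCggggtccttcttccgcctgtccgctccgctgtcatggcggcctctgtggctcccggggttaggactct
Mrps22: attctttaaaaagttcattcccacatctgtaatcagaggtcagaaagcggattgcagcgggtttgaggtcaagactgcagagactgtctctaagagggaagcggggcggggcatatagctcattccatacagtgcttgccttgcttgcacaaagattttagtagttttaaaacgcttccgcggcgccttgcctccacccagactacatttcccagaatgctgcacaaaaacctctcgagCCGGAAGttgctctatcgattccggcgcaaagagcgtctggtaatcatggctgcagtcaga
Mrpl44: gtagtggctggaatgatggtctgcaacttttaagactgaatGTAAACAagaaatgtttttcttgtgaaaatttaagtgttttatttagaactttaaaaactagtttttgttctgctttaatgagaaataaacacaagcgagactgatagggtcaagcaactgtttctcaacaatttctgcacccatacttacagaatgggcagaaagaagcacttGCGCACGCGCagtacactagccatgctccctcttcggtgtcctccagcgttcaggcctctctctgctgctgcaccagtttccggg
Mrpl1: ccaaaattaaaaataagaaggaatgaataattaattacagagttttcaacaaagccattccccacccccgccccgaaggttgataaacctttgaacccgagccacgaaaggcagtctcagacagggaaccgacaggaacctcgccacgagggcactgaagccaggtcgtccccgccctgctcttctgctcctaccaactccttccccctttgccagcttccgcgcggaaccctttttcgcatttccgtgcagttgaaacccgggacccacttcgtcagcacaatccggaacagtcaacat

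Most mitochondrial ribosomal protein genes had a Foxp3 site in both replicates. A gene was counted when peaks of both replicates overlapped the 1000 bp on either side of either of its ends, and 64 of 78 members (82.1%) met this, against 62.2% of all protein-coding genes. Replicate 1 alone had a peak at 75 members and replicate 2 alone at 65 (83.3%). Of the other 14 members, 11 had a peak in replicate 1 only, 1 in replicate 2 only and 2 in neither. In windows of the same size 20 kb outside the gene ends, 20 of 78 members (25.6%) had peaks of both replicates, against 22.0% of all genes. No p-value is given for these shares, because genes are not replicates of a condition.

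The peaks of the replicates also tended to coincide. In 48 members (61.5%) a replicate 1 peak and a replicate 2 peak within these windows overlapped by at least 50% of both lengths, against 43.7% of all genes. Taking only the strongest peak of each replicate per gene, those of 59 of the 64 members overlapped by at least 1 bp (92.2%), against 77.5% of all 13463 genes with a site in both. Where they overlapped, their summits lay a median of 113 bp apart in members and 127 bp apart in all genes.

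The strength of the sites was close to that of other genes. Strength is given as the fold enrichment deposited by the authors, which is the number of fragments over the summit (pileup) plus 1, divided by a background term of the same library. Its median over the 64 members was 11.8 in replicate 1 and 5.21 in replicate 2, against 11.6 and 5.40 over all genes with a site. Median pileups were 70.5 and 30.0 fragments in members, and 72.0 and 34.0 fragments in all genes. Of the 64 members, 19 (29.7%) lay above the median of all genes in both replicates, against 33.4% of all genes with a site. The members thus carried sites more often than all genes did, with median folds close to theirs. Their median pileup in replicate 2 was lower, at 30.0 against 34.0 fragments.

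**Figure D1:**
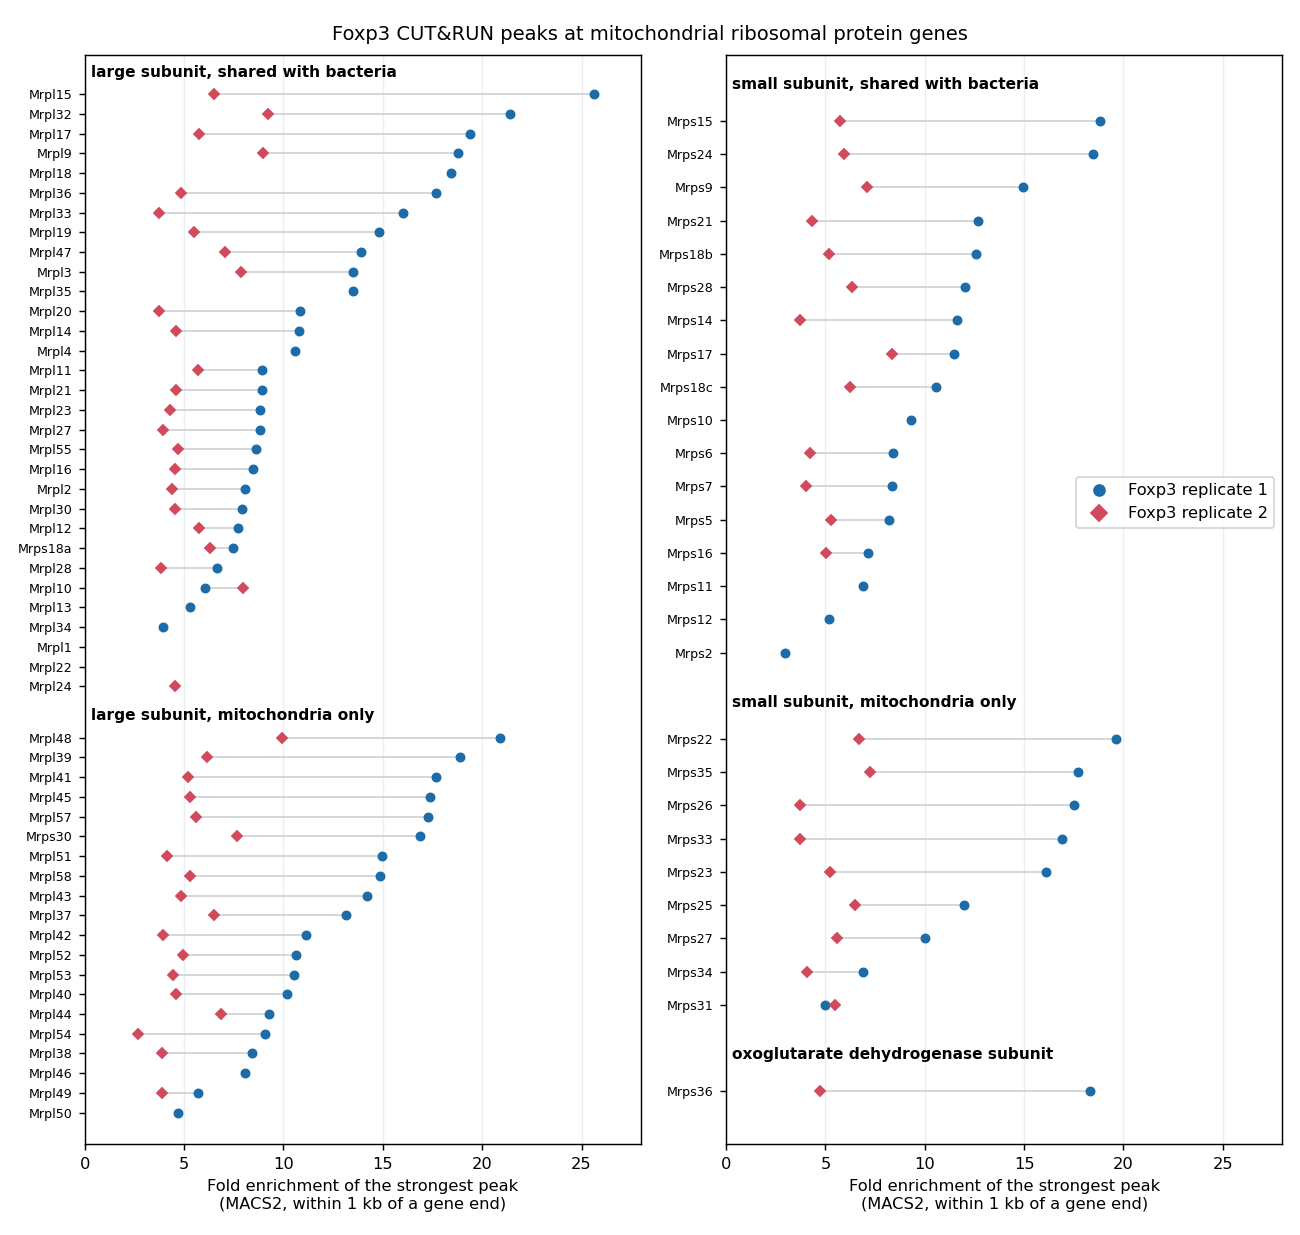
Fold enrichment of the strongest peak within 1000 bp of a gene end, for each of the 78 genes grouped by subunit and origin, with replicate 1 as circles and replicate 2 as diamonds joined by a line. Of the 64 genes with both symbols, 62 have the higher value in replicate 1, and Mrpl10 and Mrps31 have it in replicate 2.

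Replicate 1 gave the higher fold in 62 of the 64 members, as its peaks did genome-wide, so folds were ranked within each list. The means ± SD given below span this difference in scale between the libraries, so they do not measure replicate spread alone. Across the 64 members, Spearman's rho between the replicates' folds was 0.38 and Pearson's r was 0.41, against 0.46 and 0.42 across all 13463 genes with a site. These describe genes that share 2 libraries and are not tests. The order of the members was therefore loosely repeated, and neighbouring ranks cannot be told apart.

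**Figure D2:**
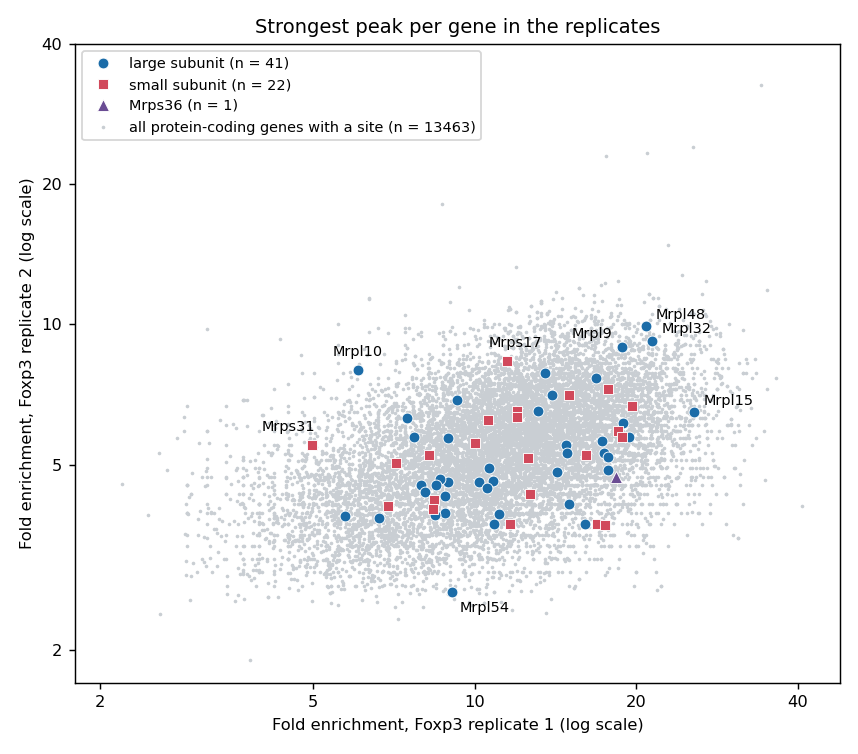
Fold enrichment of the strongest peak per gene in replicate 1 (x axis) and replicate 2 (y axis), both on log scales, for members by subunit and for all 13463 protein-coding genes with a site in both replicates as small grey points. The members lie within the cloud of other genes, with Mrpl48, Mrpl32 and Mrpl9 at its upper right and Mrpl54 at its lower edge.

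Large-subunit proteins of families shared with bacteria are encoded by 31 members, of which 23 (74.2%) had a site in both replicates. Mrps18a is counted here, since its product is of the bacterial S18 family but sits in the large subunit. Mrpl32, whose product is matured by a protease of the inner membrane, had fold enrichments of 21.4 (replicate 1) and 9.23 (replicate 2), a mean of 15.3 ± 8.62 (SD, n = 2), from 88 and 46 fragments over the summit. Both summits lay just inside the gene, 27 and 19 bp from the start site, and 8 bp apart, so the replicates pointed to the same place. Mrpl9, the counterpart of bacterial L9, had 18.8 and 8.95 (mean 13.9 ± 6.96, SD, n = 2), with summits 300 and 364 bp inside the start. Mrpl15 had the highest replicate 1 fold of all members, 25.7, and 6.48 in replicate 2 (mean 16.1 ± 13.6, SD, n = 2). Its replicate 2 fold was at or above 74.1% of genes with a site. Mrpl3, the counterpart of L3 near the peptidyl transferase centre, had 13.5 and 7.85. Its replicate 2 value stood higher in its list than its replicate 1 value, at or above 91.1% of genes with a site, against 64.8%. Mrpl10, which anchors the factor-binding stalk, was 1 of 2 members with a higher fold in replicate 2, 7.97, than in replicate 1, 6.06. Mrpl47, the counterpart of bacterial L29, had 13.9 and 7.06, with a replicate 2 pileup of 45 fragments. Mrpl28 lay at the low end with 6.63 and 3.83.

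Of the 14 members without a site in both replicates, 8 belong to this class. They include the stalk protein gene Mrpl1, the exit tunnel protein genes Mrpl22 and Mrpl24, and Mrpl4, Mrpl13, Mrpl18, Mrpl34 and Mrpl35. Mrpl18 and Mrpl35 had folds of 18.4 and 13.5 in replicate 1, while Mrpl4, Mrpl13 and Mrpl34 had 10.6, 5.29 and 3.91. The strong replicate 1 peaks of Mrpl18 and Mrpl35 thus came without a replicate 2 peak within the window. The nearest replicate 2 peaks lay just outside it, 1080 bp from an end of Mrpl18 (fold 7.50) and 1118 bp from an end of Mrpl35 (fold 3.53). In Mrpl18 that replicate 2 peak overlapped the strong replicate 1 peak, so the missing call there depended on the window. Mrpl24 had a peak in replicate 2 only, with a fold of 4.52, and its nearest replicate 1 peak was 1450 bp from an end of the gene.

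Large-subunit proteins found only in mitochondria are encoded by 20 members, including Mrps30, which carries a small-subunit symbol but belongs to the large subunit. Of these, 18 (90%) had a site in both replicates, and all 18 had overlapping strongest peaks. The shares in all genes were 62.2% and 77.5%. Mrpl48 had the highest mean rank of all members, with folds of 20.9 and 9.93 (mean 15.4 ± 7.74, SD, n = 2). Its pileup of 61 fragments in replicate 2 was the largest among members, and its summits lay 28 bp apart. Mrps30 followed with 16.8 and 7.66, and Mrpl37 had 13.1 and 6.51, with a replicate 2 pileup of 43 fragments. Of the 5 members with the lowest ranks, 3 were also here, Mrpl54 with 9.06 and 2.66, Mrpl49 with 5.72 and 3.87, and Mrpl38 with 8.44 and 3.90. A low fold did not always mean few fragments. Mrpl54 had 118 fragments over its replicate 1 summit, more than the 88 of Mrpl32, but its background term was 13.1 fragments, against 4.16 at Mrpl32 and 3.78 at the lowest in that library. Mrpl46 and Mrpl50 had a site in replicate 1 only, with folds of 8.08 and 4.70.

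Small-subunit proteins of families shared with bacteria are encoded by 17 members, of which 13 (76.5%) had a site in both replicates. Mrps9 had folds of 15.0 and 7.07 and Mrps17 had 11.5 and 8.34 (means 11.0 ± 5.58 and 9.91 ± 2.22, SD, n = 2). The Mrps17 summits lay within 50 bp of the start site, at -7 and 42 bp. Mrps15 and Mrps24 had replicate 1 folds of 18.8 and 18.5 with replicate 2 folds of 5.72 and 5.92. The genes without a site in both were Mrps2, Mrps10, Mrps11 and Mrps12, the last encoding the counterpart of the decoding-centre protein S12. Each had a peak in replicate 1 only, with folds of 2.95, 9.33, 6.89 and 5.16 in that order.

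Small-subunit proteins found only in mitochondria are encoded by 9 members, and all 9 had a site in both replicates. Mrps22, in which mutations cause mitochondrial disease in humans, had folds of 19.6 and 6.68 (mean 13.1 ± 9.14, SD, n = 2), with summits 151 and 160 bp inside the start and 9 bp apart. Mrps35 had 17.7 and 7.26. Mrps34 had 6.88 and 4.07, although 135 fragments lay over its replicate 1 summit, where its background term of 19.8 fragments was the largest among members. Mrps31 had 4.97 and 5.50, and its strongest peaks lay at opposite ends of the gene. Within 1000 bp of its listed start, however, a replicate 1 peak with a fold of 8.20 lay inside that replicate 2 peak. Mrps36, which encodes a subunit of the oxoglutarate dehydrogenase complex despite its symbol, had 18.3 and 4.71. The classes are small, and their shares of 74.2% to 100%, against 62.2% of all genes, were not tested.

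The sites lay at transcription starts. Of the 69 members with a listed start, 59 (85.5%) had peaks of both replicates within 1000 bp of it, against 61.1% of 17274 genes. The opposite end of the gene had them in 8 members (11.6%), against 13.4% of genes. Among these, the peaks at the start of Mrpl53, Mrpl43, Mrps26 and Mrpl36 also reached the window of the opposite end, so they are not separate sites. The start base itself lay under a peak of both replicates in 37 members (53.6%), against 36.7% of genes, with 45 members (65.2%) in replicate 1, against 52.3%, and 46 (66.7%) in replicate 2, against 43.6%. Of the 57 members with a listed start and a site in both, the strongest summit was within 500 bp of the start in 49 for replicate 1 (86.0%) and in 48 for replicate 2 (84.2%), against 68.5% and 72.9% of all genes. The median summit lay 127 bp inside the gene in replicate 1 and 62 bp inside in replicate 2, against 154 and 133 bp in all genes.

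Coverage by peaks was highest 100 bp inside the start and fell quickly into the gene. At that position 51 of 69 members (73.9%) were covered in replicate 1 and 48 (69.6%) in replicate 2, against 53.0% and 44.2% of all genes. At 500 bp inside the gene, 18.8% and 7.25% of members were covered, now fewer than the 28.5% and 21.3% of all genes. At 500 bp outside, it was 18.8% and 14.5% of members, against 11.1% and 6.91% of all genes. The strongest summit lay inside the gene in 42 of 57 members in replicate 1 and 36 of 57 in replicate 2, against 7490 and 7363 of 10713 genes. Cytosolic ribosomal protein genes had 37.5% and 21.4% covered at 500 bp inside, and 8.93% and 3.57% at 500 bp outside. In respiratory chain genes the median summit lay 84 and 47 bp inside the start, against 127 and 62 bp in members. Cytosolic ribosomal protein genes had it 141 and 194 bp inside. These are medians of signed positions, not distances. Within 500 bp of the start lay 86.3% and 80.4% of the respiratory chain summits, against 86.0% and 84.2% in members. These differences were not tested.

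**Figure D3:**
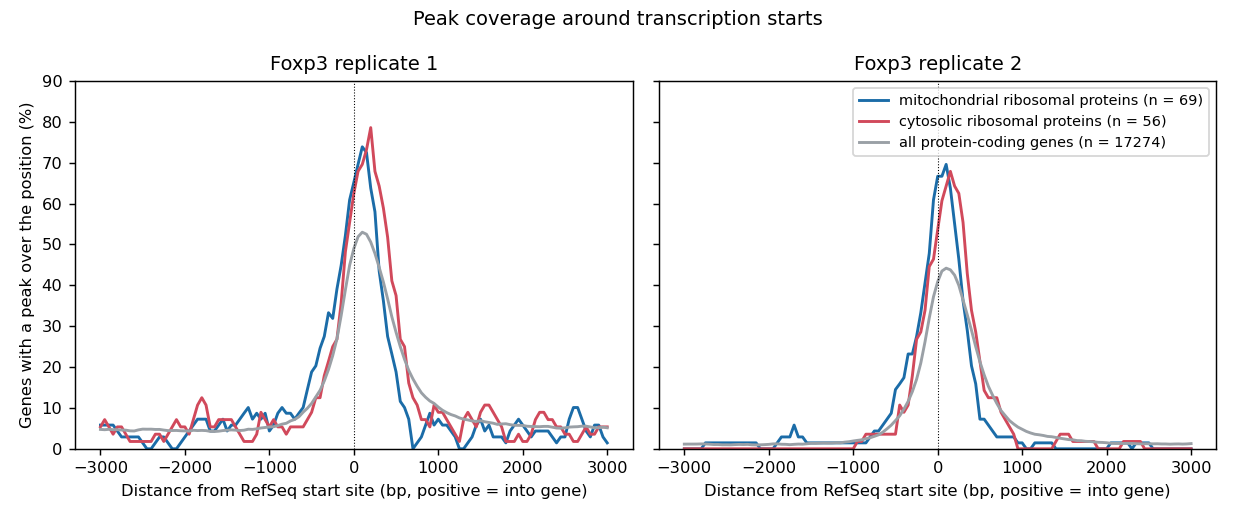
Share of genes with a peak over each position from 3000 bp outside to 3000 bp inside the RefSeq start site (1 start per gene, the outermost listed), in replicate 1 (left) and replicate 2 (right), for mitochondrial ribosomal protein genes, cytosolic ribosomal protein genes and all protein-coding genes. The mitochondrial ribosomal protein genes reach 73.9% and 69.6% at 100 bp inside the start and lie below all genes at 500 bp inside.

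The end of a RefSeq gene is not always the start in use, and this moved 3 members. In 21 of the 69 members the listed start was not the end of the gene's span, and in 12 it was over 200 bp away. Mrpl22, Mrps2 and Mrpl18 had listed starts 1621, 2115 and 1696 bp from that end and had peaks of both replicates within 1000 bp of the listed start. In Mrps2 these peaks overlapped at the start, with folds of 8.45 and 5.57 and summits at -59 and 142 bp. In Mrpl22 the peaks did not overlap, with summits at -23 and 286 bp and folds of 7.13 and 3.04. In Mrpl18 the peaks overlapped, and the replicate 2 peak had a fold of 7.50 and its summit at -230 bp. Counting either definition, 67 of 78 members had a site in both replicates. This union was not counted over all genes, and it can only raise the share of any group. Mrps21 went the other way, with its replicate 2 peak only at the opposite end of the gene. In 5 members, Mrps18b, Mrpl36, Mrpl14, Mrps21 and Mrps31, the replicates differed in where the strongest peak lay, with no base in common. Weaker peaks in the same windows did overlap in 3 of them, but not in Mrps21 and Mrps31. Mrps31 was also the only member whose call needed the edge of a peak, its summit in 1 replicate lying outside the window.

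Many of these sites also lay at a neighbouring gene. In 28 of the 64 members (43.8%) the strongest peaks of both replicates also touched the end window of another protein-coding gene, against 2689 of the 13463 genes with a site. Among the named members, the Mrpl48 peaks were shared with Rab6a, those of Mrpl32 with the proteasome gene Psma2, those of Mrpl47 with the respiratory chain gene Ndufb5 and those of Mrpl49 with Fau. With such peaks left out, 36 of 78 members (46.2%) had a site in both replicates, against 49.3% of all genes. For overlapping replicate peaks the same filter left 29 members (37.2%), against 33.6% of all genes. All genes stay in these shares, so the filter takes more from a group with closer neighbours by its construction. Of the 10 members with the highest ranks, Mrpl48 and Mrpl32 alone shared their peaks. The other 8, Mrpl9, Mrps30, Mrps35, Mrpl3, Mrps22, Mrps9, Mrpl15 and Mrps17, did not.

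Promoter composition moved with the share of genes that had a site. Member promoters held a median of 21 CpG dinucleotides in 300 bases, against 15 in all genes, at a GC content of 58.3%, against 57.3%. Among all genes, sites of both replicates within 1000 bp of a start were found at 16.4% of genes with 0 to 7 CpG (low class), at 75.1% with 8 to 22 (middle class) and at 96.3% with 23 to 67 (high class). The members fell into these classes as 1, 37 and 31 genes. In the middle class 29 of 37 members (78.4%) had a site, against 75.1% of genes, and in the high class 29 of 31 (93.5%), against 96.3%. Within these classes the members thus stood slightly above all genes in one and slightly below in the other. The part of CpG content in the result was not tested. The single member of the low class was Mrpl44, which had a site with folds of 9.26 and 6.87.

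**Figure D4:**
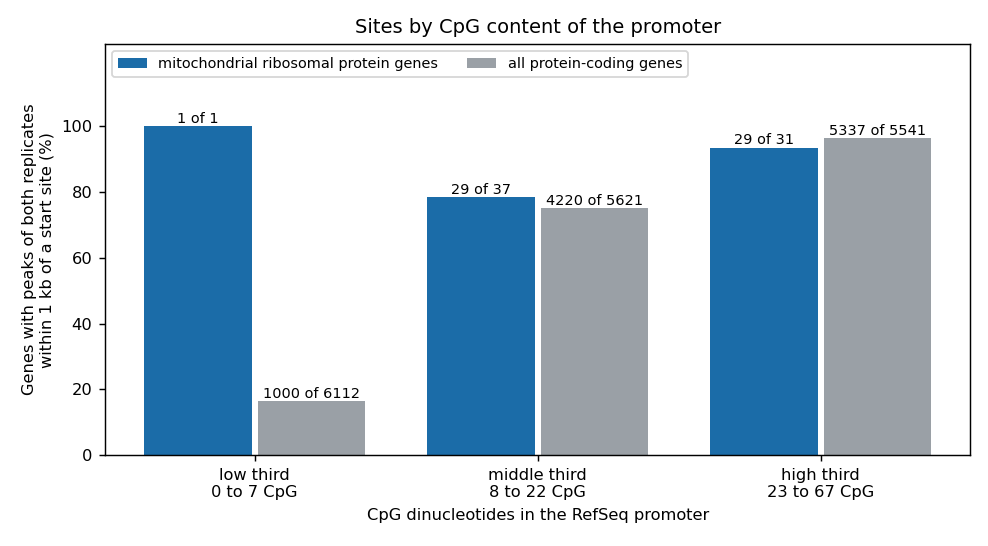
Share of genes with peaks of both replicates within 1000 bp of a listed start, for mitochondrial ribosomal protein genes (left bars) and all protein-coding genes (right bars), by low, middle and high number of CpG dinucleotides in the RefSeq promoter. Numbers above the bars give genes with a site of all genes in the class, and in the middle and high classes the bars are close, at 78.4% and 75.1% and at 93.5% and 96.3%.

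The ETS word and the NRF1 word with free centre stood in larger shares of member promoters than of all promoters. The exact NRF1 word, the YY1 word and the forkhead words were at too few members to set apart from the shares in all promoters. Only the ETS word was compared within CpG classes. The ETS word CCGGAAG, on either strand, stood in 26 of 69 members (37.7%), against 13.1% of all promoters. Within the middle and high CpG classes the shares were 35.1% and 41.9% of members, against 17.2% and 21.0% of genes. In 15 of the 26 members an ETS word lay under peaks of both replicates, as in the Mrps22 promoter printed above. The same count was not made over all promoters with the word. The start base itself lay under peaks of both replicates in 53.6% of the 69 members, so no link of peaks to the word is drawn. The NRF1 word, the palindrome in capitals in the Mrpl32 and Mrpl9 promoters, stood in 3 members (4.35%), against 1.49% of promoters, and these were Mrpl9, Mrpl32 and Mrpl39. In all 3 it lay under peaks of both replicates, which was likewise not counted over all promoters with the word. With any bases allowed at its centre, a search that includes every exact match and was met in capitals in Mrpl44, it stood in 14 members (20.3%), against 9.73%. A YY1 word stood in 5 members (7.25%), against 1.42%, and CCAAT in 27 (39.1%), against 42.7%.

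The forkhead word TGTTTAC, on either strand, stood in 2 members (2.90%), Mrpl44 and Mrpl40, against 3.49% of promoters. In Mrpl44 it lay outside the peaks of both replicates, and in Mrpl40 under a replicate 2 peak only. The repeat word TTTGTTTG stood in Mrpl35 only (1.45%), against 2.52% of promoters, and under no peak. Other variants of these words were not searched, and only 300 bases per start were examined.

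**Figure D5:**
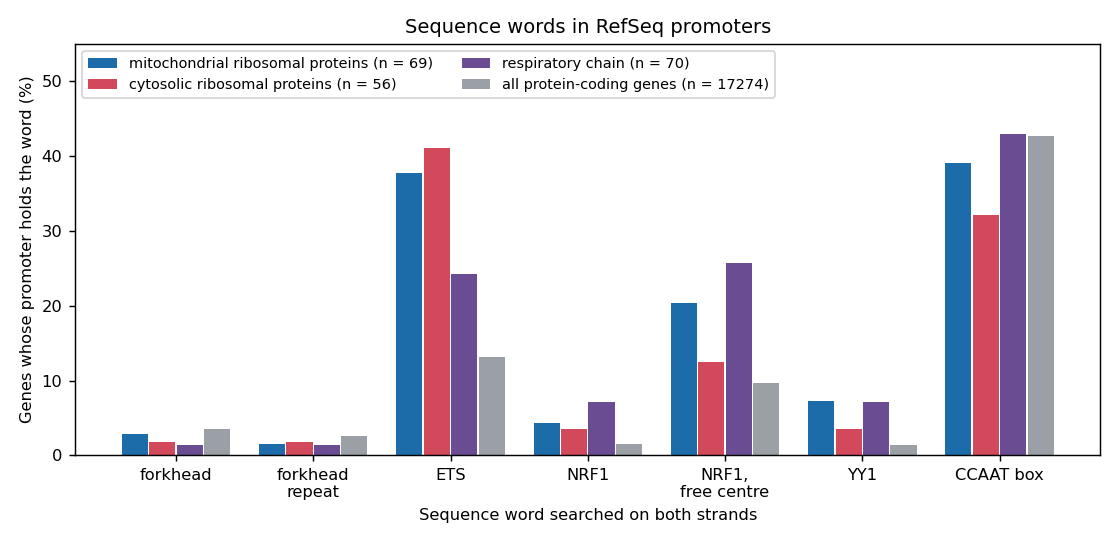
Share of genes whose RefSeq promoter holds each sequence word on either strand, for mitochondrial ribosomal protein genes, cytosolic ribosomal protein genes, respiratory chain genes and all protein-coding genes. The ETS word stands in 37.7% of mitochondrial ribosomal protein genes and 13.1% of all genes, and the forkhead word in 2.90% and 3.49%.

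The gene groups most like the members were similar at gene ends. Sites in both replicates were found at 64 of 76 cytosolic ribosomal protein genes (84.2%) and at 64 of 87 nuclear-encoded respiratory chain genes (73.6%). Their strongest replicate peaks overlapped by at least 1 bp in 79.7% and 82.8% of genes with a site, against 92.2% in the members. Replicate peaks overlapping by 50% of both lengths were found at 60.5% and 48.3% of their genes, against 61.5% of members. Median folds in replicates 1 and 2 were 10.6 and 4.75 for cytosolic ribosomal protein genes, and 13.0 and 5.89 for respiratory chain genes. The ETS word stood in 41.1% and 24.3% of their promoters. None of these differences was tested, and no feature is claimed to be particular to the members.

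The other genes that serve mitochondrial translation had sites at like shares, read against the same 62.2% of all genes. Mitoribosome proteins with other symbols had a site in both replicates in 4 of 5 genes. Aurkaip1 had folds of 16.0 and 6.57, Gadd45gip1 13.5 and 4.91, Dap3 16.8 and 4.51, and Chchd1 6.90 and 3.26, while Ptcd3 had 22.6 in replicate 1 and no replicate 2 peak. Genes for assembly of the mitoribosome and for mitochondrial RNA had sites in 17 of 20 cases (85.0%). The helicase gene Dhx30 led with 18.97 and 7.89, followed by Mterf3, a factor needed for assembly of the large subunit, with 20.4 and 6.68, and the endonuclease-like Ybey with 14.0 and 6.83. Eral1, Fastkd2 and Mrm2 had no site in both. Translation factor genes had sites in 11 of 14 cases (78.6%), led by the elongation factor genes Gfm1 (25.7 and 7.46) and Guf1 (17.8 and 7.46) and the release factor gene Mtrf1l (20.8 and 6.80). Gfm2, Mtif2 and Mtrf1 had none in both. Mitochondrial aminoacyl-tRNA synthetase genes, which charge the tRNAs of the organelle, had sites in 14 of 17 cases (82.4%). Lars2 had 34.1 and 32.6 with pileups of 462 and 690 fragments, far from Yars2 with 20.4 and 8.93 and Nars2 with 12.4 and 8.05. The replicate 2 fold of Lars2 was the highest of all genes with a site, whose median pileup in that library was 34.0 fragments. Peaks were called without a control library, and whether so extreme a signal depends on the Foxp3 antibody was not tested. Aars2, Sars2 and Tars2 had none in both.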

How the data were processed

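Per the file headers, the authors called peaks in each of the 2 Foxp3 libraries separately, using MACS 2.1.1.20160309 on read pairs, at a q-value cutoff of 0.01, without a control library and with all duplicates kept. A site cut with any antibody can therefore be listed. The genome build was mm10 and CASAVA 1.4 was used, per the submitters' processing notes; an aligner is not named in any source used. The deposited pileup is a signal, the fragments over the summit, with no scaling to depth. Fold enrichment, as deposited, is a ratio to the background of the same library, taken over the genome or over the surrounding 10000 bp. The lowest background term was 3.78 fragments in replicate 1 and 5.09 in replicate 2. Significance was deposited as the −log10 of a p-value and of a q-value. The smallest pileups called were 10 and 13 fragments, so weaker sites could not be listed.

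Gene spans, start sites, strands and promoters came from RefSeq tables of GRCm38.p6, whose coordinates are those of mm10. Strand was known for 17274 of 21631 genes; Mrpl4, Mrpl13, Mrpl15, Mrpl19, Mrpl38, Mrpl54, Mrps28, Mrps34 and Mrps35 were not in the promoter table. Per gene and replicate, the peak with the highest fold within 1000 bp of either end was used. Counts over members are set beside the same counts over all protein-coding genes, and no test was run, since there is 1 group of 2 libraries and genes are not replicates. Named were the 10 members with the highest mean within-list percentile of fold, the 5 lowest, all without a site in both, all whose strongest peaks did not overlap, and the 5 highest pileups in replicate 2; of the other lists, the 3 highest and those without a site, and further genes were named after their values were seen. The members, lists and classes were chosen with earlier results of these data known, the classes, CpG classes and start-site windows after the files were seen. Of the translation factor list, 14 of 15 symbols matched. Python 3.11.15, numpy 2.4.6, pandas 2.3.3 and matplotlib 3.10.9 were used, and the interval code was tested on simulated peaks. Alternatives were other windows, overlaps and peak thresholds, equal peak numbers, single replicates and sites at 1 gene only.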

Additional observations from a re-analysis of the deposited data

How the results depend on the processing

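The count of 64 members with a site in both replicates stayed within 1.5 times under windows of 500 and 5000 bp, summits in place of overlap, listed start sites (chosen after seeing the data), equal peak numbers and either replicate alone (65 without replicate 1, 75 without replicate 2), with a range of 56 to 75. It fell to 34 with folds of at least 5 (43.6%, against 36.6% of all genes), to 39 with −log10 q of at least 10 (50% of members, against 41.5%) and to 36 without peaks at more than 1 gene (46.2%, against 49.3%). In that last setting alone, among those run on this count, members lay below all genes. The 48 members with replicate peaks overlapping by 50% became 17 at 80% (21.8%, against 16.4% of all genes), 31 with folds of at least 5 (39.7%, against 28.6%) and 29 without peaks at more than 1 gene (37.2%, against 33.6%). By pileup the medians were 70.5 and 30.0 fragments, a different measure. The 8 members with sites at the opposite end became 3 with windows of 500 bp (4.35%, against 6.06%) and 4 by summit (5.8%, against 10.8%). With the peak whose summit was nearest to a gene end, replicate 1 folds were 4.91 for Mrpl48 and 4.81 for Mrps9, against 20.9 and 15.0 for their strongest peaks, and the replicate 2 fold of Mrpl48 was 4.56, against 9.93. Beyond the filters' own construction, the cause of these shifts was not tested. No paired analysis was possible because the files hold 1 group of 2 libraries. Sites under the smallest called pileups were not detectable at this depth.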

Other observations

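Mrpl48 had a second site of both replicates away from its ends. RefSeq lists more than 1 start for this gene, and near an inner one, on chromosome 7, a replicate 1 peak from 100582779 to 100582938 lay inside a replicate 2 peak from 100582740 to 100583135. Their folds were 10.0 and 6.87, from 37 and 34 fragments, and the summits were 342 and 294 bp inside that start. The replicate 1 fold was below the member median of 11.8 and the replicate 2 fold above that of 5.21.

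Mrps11 and Mrpl46, which encode a small-subunit and a large-subunit protein, were the members whose ends shared 1 peak with each other. It ran from 78782714 to 78783080 on chromosome 7 in replicate 1, with a fold of 6.89, and no replicate 2 peak lay within 1000 bp. The nearest replicate 2 peaks were 1694 bp from an end of Mrpl46 and 5828 bp from an end of Mrps11. Other members that shared a peak with a mitochondrial gene included Mrpl43 with the helicase gene Twnk and Mrps27 with Ptcd2, in both replicates, and Mrps12 with Sars2, in replicate 1. These pairs were picked after their values were seen.

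Of the 78 members, 18 kept a site in both replicates under every window and peak threshold tried with both replicates and without peaks at more than 1 gene. The share of all genes passing the same combination was not computed, so this count sets the members apart from no other genes. They were Mrpl3, Mrpl9, Mrpl11, Mrpl15, Mrpl17, Mrpl19, Mrpl39, Mrpl58, Mrps9, Mrps15, Mrps17, Mrps22, Mrps23, Mrps24, Mrps25, Mrps28, Mrps30 and Mrps35. At the other extreme, Mrpl1, Mrpl13, Mrpl50, Mrps11 and Mrps12 had no site in both replicates even within 5000 bp of an end. In that window 73 of 78 members (93.6%) had one, against 78.9% of all genes.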
